A study of Arabidopsis thaliana with 20 samples.

Results

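The genes described here are those whose response to the loss of *PLETHORA 3* (*PLT3*) and *PLETHORA 7* (*PLT7*) differed between the vegetative shoot apical meristem (SAM) and the inflorescence meristem (IM) of *Arabidopsis thaliana*. They were found with a test of the genotype by tissue interaction, which asks whether the log2 fold change of *plt3 plt7* over Col-0 in the IM differs from that in the SAM, with harvest group nested in tissue. A gene was called when its adjusted *p* was under 0.1 and the difference exceeded 25% (0.32 on the log2 scale). Of 20348 genes tested, 72 were called (0.354%), 22 with a positive difference (0.108%) and 50 with a negative one (0.246%). A negative difference means that the transcript was lower in the mutant IM, relative to Col-0, than it was in the mutant SAM.

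RNA was sequenced from 20 libraries, 5 from each of Col-0 SAM, *plt3 plt7* SAM, Col-0 IM and *plt3 plt7* IM, with *c*. 50 hand-dissected meristems per library. Col-0 served as the wild type, and the mutant carries CRISPR-induced lesions in both *PLT* genes in the Col-0 background. SAMs came from seedlings of 7 d post germination (dpg) kept on a mesh over agar, with the cotyledons, oldest leaves and most of the hypocotyl cut away, whereas IMs came from plants of 31 to 33 dpg on soil and kept their youngest flower primordia. The tissues therefore also differed in plant age, substrate, lighting and day of harvest, and these cannot be told apart. SAMs were collected in 4 harvest groups and IMs in 3. SAM group 1 held Col-0 replicates 1 and 2 and mutant replicate 1, and SAM group 2 held Col-0 replicate 3 and mutant replicates 2 and 3. SAM groups 3 and 4 and IM group 3 held 1 library of each genotype. The sources do not state whether libraries of 1 harvest group came from separate sowings, so the *p*-values measure the spread between these libraries. In bulk samples, fewer cells of a type and less RNA per cell cannot be told apart.

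*PLT3* and *PLT7* encode AP2-domain transcription factors of the PLETHORA/AINTEGUMENTA-LIKE family, which act in meristems and young primordia and help to set where new organs arise. The low-oxygen response supplied 13 of the genes called here. In that pathway, plant cysteine oxidases (PCOs) use oxygen to mark group VII ethylene response factors for degradation. When oxygen runs short these factors persist and switch on genes of fermentation, sugar breakdown and oxygen sensing, the *PCO* genes among them.

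Promoter windows are shown first because they let the called low-oxygen genes be compared with the other calls by sequence. A core of the hypoxia-responsive promoter element (AAACCA, any 3 bases, then GC) was searched on both strands in the 250 bases before each gene start (TAIR10.1). It was present in 0.809% of 27443 promoters, in 3 of the 72 called genes (4.17%) and in 2 of the 13 called low-oxygen genes (15.4%), *ADH1* and AT4G10270, the latter with 2 matches. The third gene was *GL1*. In a shorter window of 150 bases it was present in 0.485% of all promoters and in 1 of the 72 called genes (1.39%), AT4G10270, which is 1 of the 13 low-oxygen genes (7.69%). This motif was chosen after the data had been seen. The windows below carry the match in capitals and read 5′ to 3′ on the strand of the gene. The stretch at chr1:28975080-28975108 (plus strand) lies before *ADH1*, those at chr4:6374495-6374523 and chr4:6374625-6374653 (plus strand) before AT4G10270, and that at chr3:10363746-10363774 (minus strand) before *GL1*.
ADH1: aaccgcccgAAACCAAAAGCattcgatgg
AT4G10270, far match: acaatctcaAAACCAGGTGCacatgatag
AT4G10270, near match: aaacaaccaAAACCAACGGCcacagcttc
GL1: gatacaattAAACCAACTGCcaaatttta

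A core of the site bound by AINTEGUMENTA-type factors (CAC, any 3 bases, T, any base, then CC) was present in 4.54% of all promoters and in 5 of the 72 called genes (6.94%). It is shown for the called gene with the largest positive change among flowering regulators, *FLC* (chr5:3179580-3179607, plus strand, opposite to the gene), and for a low-oxygen gene, AT2G17850 (chr2:7760932-7760959, minus strand, the strand of the gene). The *FLC* match begins with the letters of a G-box, CACGTG, a motif found in 6.49% of all promoters and in 8 of the called genes (11.1%). Of the other motifs searched, the evening element AAATATCT was in 4.79% of all promoters and 9.72% of called genes, and the auxin response motifs TGTCTC and TGTCGG were in 10.9% and 4.16% of all promoters and in 11.1% and 1.39% of called genes. These matches are descriptions of the letters only.
FLC: caagattgcCACGTGTACCgcatgacga
AT2G17850: ccacgtataCACCACTGCCgccaaaatg

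Library totals ran from 24.8 to 114.94 megacounts (M), and 18845 to 20520 genes per library reached 10 counts. Sequenced fragments averaged 417.2 ± 8.5 nt in Col-0 SAM and 380.8 ± 29.5 nt in *plt3 plt7* SAM (SD, n = 5), a difference of -36.4 nt (p = 0.00794 by a two-sided exact permutation test, which cannot give a smaller value with this design). The mean was 373.5 ± 32.2 nt in Col-0 IM and 370.1 ± 56.7 nt in *plt3 plt7* IM (exact permutation p = 0.921). The IM difference was -3.4 nt, and its libraries were more widely spread than those of the SAM. Whether the genotype difference in fragment length itself differed between the tissues was not tested. The median transcript length was 1240 nt for genes with a negative call, 1851 nt for those with a positive call and 1653 nt for all genes tested, and the median difference was -0.16 in the shortest decile of transcripts and 0.11 in the longest. The part of fragment length in the calls was not tested directly.

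Col-0 SAM replicates 1 and 2, which are the Col-0 libraries of SAM harvest group 1, stood apart from the other SAM libraries in touch and wound genes. *WRKY40*, a transcription factor gene induced by wounding and pathogens, had 695 and 773 normalised counts (counts divided by a size factor set over all libraries) in these 2 libraries, 32.4 to 101 in the other Col-0 SAM libraries and 27 to 94.8 in *plt3 plt7* SAM, with 37.8 in the mutant library of the same harvest group. *ZAT12*, a zinc-finger factor gene of stress responses, had 492 and 453, against 16.4 to 58.8 in the other SAM libraries. Both libraries lay above every other SAM library for 16 of 26 tested genes of jasmonate, salicylate and wounding. The same held for 7 of 46 tested low-oxygen genes, but for 0 of the 13 low-oxygen genes called here. The share of all genes with this pattern was not counted, so these counts have no background. Results are also given with SAM harvest groups 2 to 4 only, which leaves out these 2 libraries and the mutant library of their group.

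The mutated genes themselves had no called difference between tissues. *PLT3* normalised counts were 536, 432, 544, 714 and 658 in Col-0 SAM and 329, 254, 281, 280 and 314 in *plt3 plt7* SAM. In the IM they were 1301, 1133, 1444, 1272 and 1431 in Col-0 and 758, 650, 742, 743 and 809 in *plt3 plt7*. The groups did not overlap in either tissue, and *PLT3* transcript fell in both, by 0.83 ± 0.10 on the log2 scale in the IM and by 0.97 ± 0.11 in the SAM (SE), leaving a difference of 0.14 ± 0.15 (adjusted p = 0.833). *PLT3* overlaps AT5G10520 on the opposite strand, and without a stated strand setting reads of the pair cannot be separated. *PLT7* transcript was not called in either tissue (log2 fold change -0.20 in the IM and -0.47 in the SAM, adjusted p = 0.714 and 0.178), so its level does not check the genotype.

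Most genes with a called difference were called between genotypes in the IM and not in the SAM. In the same fit, 269 genes were called between genotypes in the IM (1.32%), 74 higher (0.364%) and 195 lower (0.958%) in *plt3 plt7*. In the SAM 97 genes were called (0.477%), 53 higher (0.26%) and 44 lower (0.216%). Of the 72 genes with a called difference, 53 were called in the IM only, 37 of them lower and 16 higher in the mutant. Another 8 were called in the SAM only, 5 higher and 3 lower, 2 were called in both tissues in opposite directions, 1 was called in both in the same direction, and 8 were called in neither. These classes rest on a threshold in each tissue, so a gene called in 1 tissue can have an estimate of similar size in the other. *PCO1*, for example, was called in the IM only, with log2 fold changes of -0.50 ± 0.12 in the IM and 0.42 ± 0.15 in the SAM (SE). The IM estimate was the larger in size for 57 of the 72, against 45.2% of all genes. In 58 of the 72 the estimates had opposite signs, although in only 22 of these did both exceed 25%. Among the negative calls, 46 of 50 were lower in the mutant IM and higher in the mutant SAM. Of the positive calls, 12 of 22 were higher in the IM and lower in the SAM. Choosing genes by a large difference between the tissues itself favours opposite signs, and the share over all genes was not counted. Being called in 1 tissue alone did not by itself mean that the tissues differed: of 250 genes called in the IM only, 53 (21.2%) also had a called difference, and of 78 called in the SAM only, 8 (10.3%) did.

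The number of calls depended on single libraries and on the tool. edgeR's quasi-likelihood test called 11 genes (0.0541%), 2 positive and 9 negative, all among the 72. The count fell to 39 without Col-0 SAM replicate 3 and to 40 without replicate 5 of either SAM genotype. SAM replicates 4 and 5 and IM replicate 5 of each genotype were the only libraries of that genotype in their harvest groups. Leaving out 1 such library also removes the comparison of its partner in the other genotype, so both fits of a pair were nearly the same. The 20 fits that left out 1 library are therefore not all separate checks. It rose to 123, 161 and 240 without Col-0 SAM replicate 1, Col-0 SAM replicate 2 and *plt3 plt7* SAM replicate 1, and to 234 and 133 without replicate 3 of the Col-0 IM and of the *plt3 plt7* IM. When only SAM harvest groups 1 and 2 were kept, which leaves out the mutant SAM libraries with the shortest fragments (352.0 and 346.3 nt), 20 genes were called, 12 positive and 8 negative, and 11 of them were among the 72. The predominance of negative calls was therefore not seen in that setting. That fit also leaves out the Col-0 SAM libraries of harvest groups 3 and 4. It keeps Col-0 SAM replicates 1 and 2, which stood apart in touch and wound genes. The fit rests on fewer libraries, and what lowered the count was not tested. With SAM harvest groups 2 to 4 only, 302 genes were called (1.49% of 20268), 89 positive and 213 negative, and 67 of them were among the 72. In the same setting 305 genes were called in the IM and 326 in the SAM, 235 of the latter higher in *plt3 plt7*. The larger number of calls in the IM was therefore not seen in that setting. Of the 32 called genes named below by rule, 8 were called in each of the 20 fits that left out 1 library and in each of 15 other settings: *FTM1*, AT4G33560, *PCO2*, *HB1*, AT4G19200, *HXK3*, *FLC* and AT4G03610.

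**Figure D1:**
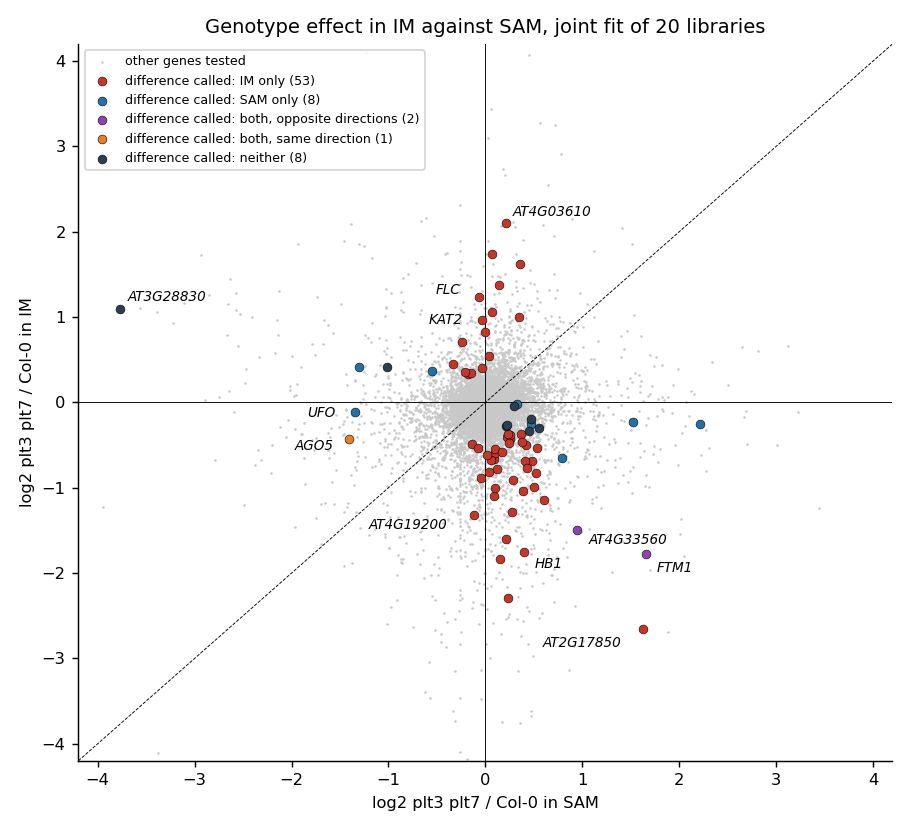
Log2 fold change of *plt3 plt7* over Col-0 in the IM (y axis) against the SAM (x axis) for each gene tested, from 1 fit of 20 libraries. Coloured points are the 72 called genes by class, grey points are other genes, the dashed line marks equal effects, and 11 uncalled genes lie outside the axes. Called genes lie mostly near the vertical axis (53 called in the IM only), with *FTM1* and AT4G33560 at the lower right.

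The low-oxygen response was the leading group among the genes that were lower in the mutant IM. Of 49 listed genes 46 were tested and 13 had a called difference, all 13 negative, which is 28.3% of the tested members against 0.246% of all genes, and 26% of all negative calls. Their log2 differences ran from -0.63 (*LBD41*) to -4.29 (AT2G17850). All 13 were lower in the mutant IM and higher in the mutant SAM by estimate, and 11 of the 13 had levels more than 2-fold higher in Col-0 IM than in Col-0 SAM. Of the 46 tested members, 22 were lower in the mutant IM and higher in the mutant SAM by estimate. The share of all genes with these signs was not counted. Across them, 37 had a negative and 9 a positive difference, and the median was -0.59, from a median of -0.47 in the IM and 0.05 in the SAM, against a median difference of -0.008 over all genes. That median was -0.27 over members present in both tissues and -0.26 without harvest group in the fit. In the IM 19 members were called lower, against 0.958% of all genes, and in the SAM 2 were called higher, against 0.26%. The list was drawn up with earlier results of these data known, so its count is not independent evidence.

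*FTM1* (AT1G43800, chr1:16577521-16579722), a plastid acyl-carrier-protein desaturase gene named for its part in the floral transition, changed in opposite directions in the 2 tissues. Its normalised counts were 25, 32.1, 43.6, 51.2 and 103 in Col-0 SAM and 89.6, 118, 184, 237 and 206 in *plt3 plt7* SAM. In the IM they were 2532, 3180, 4597, 2645 and 2224 in Col-0 and 601, 628, 1073, 1008 and 1244 in *plt3 plt7*. Every mutant IM library was below every Col-0 IM library, whereas in the SAM the highest Col-0 library was above the lowest mutant one. The transcript rose by 1.66 ± 0.28 in the SAM (log2, SE, adjusted p = 9.29e-06) and fell by 1.78 ± 0.24 in the IM (adjusted p = 2.34e-10). The difference of -3.44 ± 0.37 had the smallest adjusted p of all genes (3.54e-16, and 0.000863 with edgeR).

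AT4G33560 (chr4:16135157-16135921), annotated as a wound-responsive family gene, was the only other gene called in both tissues in opposite directions. It had 33.9, 24.1, 9.96, 30.4 and 26.8 normalised counts in Col-0 SAM and 36.6, 57.6, 30.9, 39.8 and 61 in *plt3 plt7* SAM. In the IM it had 578, 696, 820, 539 and 456 in Col-0 and 174, 179, 318, 242 and 200 in *plt3 plt7*. The IM groups were well apart, and the SAM groups overlapped at low counts. The log2 fold change was 0.95 ± 0.27 in the SAM (adjusted p = 0.0947) and -1.49 ± 0.19 in the IM (adjusted p = 2.37e-11), with a difference of -2.43 ± 0.33 (adjusted p = 1.99e-09).

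Among the oxygen-sensing enzymes and transcription factors of the pathway, *PCO2*, *PCO1*, *HRA1* and *LBD41* had a called difference, and each was called in the IM and not in the SAM. *PCO2* (AT5G39890, chr5:15974270-15976270) had 23.5, 22.7, 46.1, 59.5 and 29.6 normalised counts in Col-0 SAM and 47.9, 42, 50.7, 71.9 and 52.5 in *plt3 plt7* SAM, with overlapping groups. In the IM it had 419, 508, 579, 555 and 459 in Col-0 and 176, 218, 319, 282 and 286 in *plt3 plt7*, with no overlap. Its difference was -1.49 ± 0.25 (adjusted p = 7.84e-06), from a fall by 0.99 ± 0.13 in the IM and an uncalled 0.50 ± 0.21 in the SAM. *PCO1* followed with a difference of -0.92 ± 0.19 (adjusted p = 0.00168), from -0.50 ± 0.12 in the IM and 0.42 ± 0.15 in the SAM, its mean going from 1335 ± 94.5 in Col-0 IM to 947.2 ± 112 in *plt3 plt7* IM (SD, n = 5). *HRA1*, a trihelix factor that restrains a group VII ethylene response factor, went from 1891 ± 280 to 1270 ± 175 in the IM and had a difference of -0.74 ± 0.18 (adjusted p = 0.0242), from -0.58 ± 0.12 in the IM and 0.17 ± 0.14 in the SAM. *LBD41*, a LOB-domain factor gene often used as a low-oxygen marker, went from 3400 ± 264 to 2621 ± 247 in the IM and had a difference of -0.63 ± 0.14 (adjusted p = 0.00866), from -0.38 ± 0.09 in the IM and 0.25 ± 0.11 in the SAM. For each of these 4 genes every mutant IM library lay below every Col-0 IM library, and the SAM groups overlapped. *PCO1*, *HRA1* and *LBD41* were no longer called with edgeR or with SAM harvest groups 1 and 2 only, with adjusted p values of up to 0.315, 0.324 and 0.324 over all settings.

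*HB1* (AT2G16060, chr2:6982531-6983777), which encodes a phytoglobin that scavenges nitric oxide, was the only one of the 13 called low-oxygen genes with a level more than 2-fold higher in Col-0 SAM than in Col-0 IM. It had 141, 193, 181, 148 and 177 normalised counts in Col-0 SAM and 204, 210, 207, 241 and 250 in *plt3 plt7* SAM. In the IM it had 30.6, 71.3, 71.1, 127 and 37.8 in Col-0 and 9.94, 7.69, 38, 29.6 and 16.9 in *plt3 plt7*. The SAM groups did not overlap, but the SAM change was not called (0.40 ± 0.24, adjusted p = 0.575). In the IM, where the groups overlapped, it fell by 1.75 ± 0.27 (adjusted p = 1.49e-07), and the difference was -2.14 ± 0.37 (adjusted p = 1.65e-05).

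*ADH1* (AT1G77120, chr1:28975255-28977417), the alcohol dehydrogenase of ethanolic fermentation, had 191, 270, 239, 214 and 293 normalised counts in Col-0 SAM and 245, 248, 399, 438 and 410 in *plt3 plt7* SAM. In the IM it had 2144, 2686, 3356, 2190 and 2415 in Col-0 and 1380, 1470, 1585, 1542 and 2028 in *plt3 plt7*. The IM groups did not overlap and the SAM groups did. The difference was -1.17 ± 0.23 (adjusted p = 0.000562), and *ADH1* overlaps AT1G77122 on the opposite strand. *ADH1* was no longer called with edgeR or with SAM harvest groups 1 and 2 only, with an adjusted p of up to 0.199 over all settings. The pyruvate decarboxylase genes of the step before it were not called: *PDC1* had a difference of -0.98 ± 0.38 (adjusted p = 0.415) and *PDC2* of -0.19 ± 0.11 (adjusted p = 0.638). *SUS1*, a sucrose synthase gene, fell by 0.47 in the IM, but its difference of -0.28 ± 0.14 was not called (adjusted p = 0.587).

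The remaining called members were AT3G27220, AT3G03270, AT4G10270, AT5G65207 and AT2G17850, with log2 differences of -0.73, -0.72, -1.07, -1.20 and -4.29. AT2G17850, a rhodanese-family gene, rested on low counts, with 0 to 5.63 in Col-0 SAM, 3.78 to 19.5 in *plt3 plt7* SAM, 10.8 to 50.6 in Col-0 IM and 0 to 8.43 in *plt3 plt7* IM. AT4G10270 shares 12.8% of its sequence words with AT4G10280 and overlaps it on the opposite strand. AT3G03270 and AT5G65207 passed in only 10 and 6 of the 20 fits that left out 1 library.

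Summed over the list, normalised counts were 15571 to 18098 in Col-0 SAM and 15731 to 18192 in *plt3 plt7* SAM, but 36037 to 44328 in Col-0 IM and 26942 to 33103 in *plt3 plt7* IM. The sums overlapped in the SAM and were apart in the IM. *FTM1* and AT4G33560 were the 2 members called as higher in the SAM. How many members were called depended on the SAM libraries, with 8 called without Col-0 SAM replicate 3 or without replicate 5 of either SAM genotype, 7 without replicate 4 of either, 4 with SAM harvest groups 1 and 2 only, and 4 with edgeR. With SAM harvest groups 2 to 4 only 13 were called, of which 12 were among the 13 above, with AT4G24110 in place of AT2G17850. Over all settings tried, no member was called with a positive difference.

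**Figure D2:**
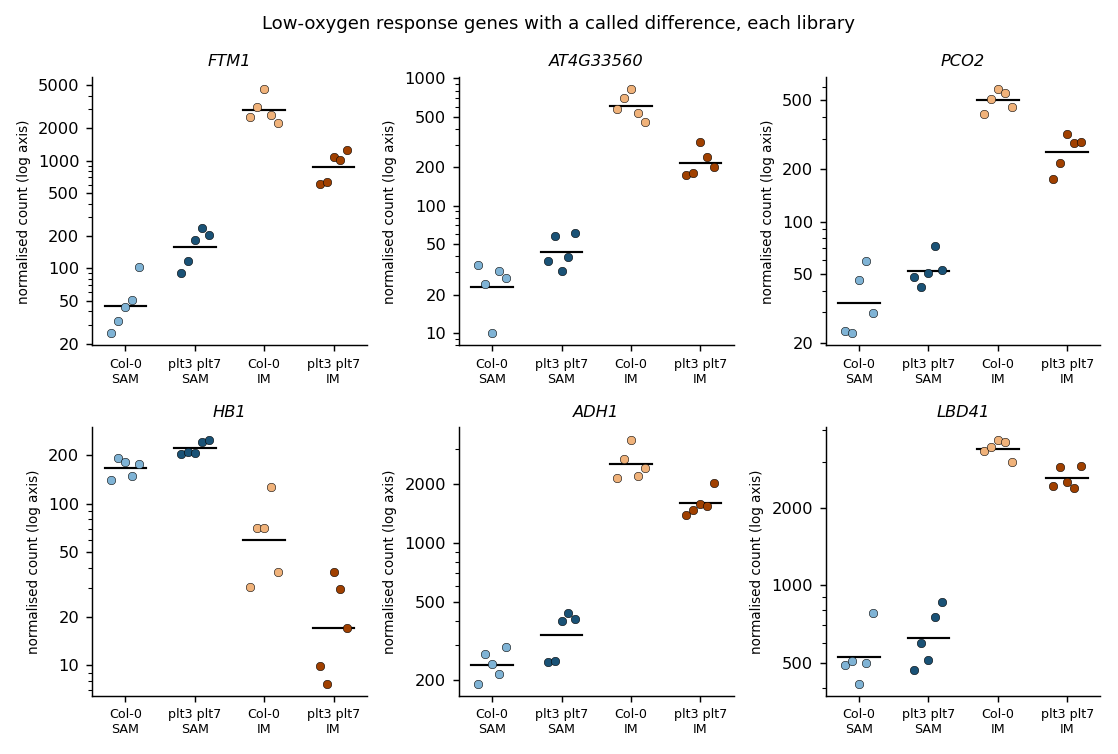
Normalised counts (log axis) of 6 called low-oxygen genes in each of 20 libraries, grouped by genotype and tissue, with horizontal lines at the geometric mean of 5 libraries. Mutant IM libraries lie below Col-0 IM libraries without overlap for *FTM1*, AT4G33560, *PCO2*, *ADH1* and *LBD41*, and with overlap for *HB1*.

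The other 37 negative calls were of mixed function. Of these, 16 had levels more than 2-fold higher in Col-0 SAM than in Col-0 IM and 8 the reverse, against 17.8% and 11% of all genes. AT4G19200 (chr4:10498748-10500809), a proline-rich family gene, had the smallest adjusted p among genes called in the IM only. Its normalised counts were 857, 958, 943, 1280 and 1006 in Col-0 IM and 445, 350, 391, 431 and 394 in *plt3 plt7* IM, with no overlap. They were 935, 1096, 953, 931 and 862 in Col-0 SAM and 809, 823, 902, 895 and 931 in *plt3 plt7* SAM, with overlap. The transcript fell by 1.32 ± 0.10 in the IM and had a log2 fold change of -0.12 ± 0.11 in the SAM, a difference of -1.20 ± 0.15 (adjusted p = 1.14e-11, and 0.00179 with edgeR).

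*HXK3* (AT1G47840, chr1:17616051-17619011), a hexokinase gene, had 91.7, 87.1, 81.9, 82.2 and 58.4 normalised counts in Col-0 IM and 38.8, 24.4, 27.6, 31.3 and 45 in *plt3 plt7* IM. In the SAM it had 266, 389, 260, 331 and 320 in Col-0 and 353, 319, 377, 425 and 365 in *plt3 plt7*. The IM groups did not overlap, and the difference was -1.55 ± 0.24 (adjusted p = 7.14e-07). *WRKY65*, AT1G03710 (a cystatin-family gene) and AT3G26760 (a Rossmann-fold family gene) likewise had mutant IM libraries below all Col-0 IM libraries, with differences of -1.42 ± 0.29, -1.73 ± 0.34 and -1.19 ± 0.24.

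*GL1*, a MYB factor gene of trichome initiation, had a mean of 40.79 ± 8.96 in Col-0 IM and 19.7 ± 9.43 in *plt3 plt7* IM (SD, n = 5), against 242.8 ± 44.8 and 264.8 ± 30.6 in the SAM. Its difference of -1.10 ± 0.30 (adjusted p = 0.0799) passed in 7 of the 20 fits that left out 1 library. It was the only called gene of 6 listed trichome genes, whose summed level was 717 to 909 in Col-0 IM and 612 to 882 in *plt3 plt7* IM. Among genes outside the naming rule, chosen after their values were seen, were *LOG5* (-0.83), which makes active cytokinin, *IAA2* (-0.84), an auxin-responsive repressor gene, *KRP2* (-0.75), a cell cycle inhibitor gene, and *LHCB2.3* (-0.85), a light-harvesting antenna gene that shares 39.9% of its words with another gene. All 4 fell in the IM. *PBP1*, a lectin gene, had 84.1 to 1142 normalised counts in Col-0 IM and 30.8 to 259 in *plt3 plt7* IM, but 25644 to 36765 over the SAM libraries.

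Markers of other cell types had overlapping sums in the 2 genotypes of each tissue. Summed over 12 photosynthesis genes, all present, they were 177636 to 205678 in Col-0 IM and 164181 to 193657 in *plt3 plt7* IM, and 857978 to 1682832 and 902746 to 1330143 in the SAM. Summed over 6 anther and tapetum genes, they were 1008 to 2457 in Col-0 IM and 521 to 2378 in *plt3 plt7* IM, where *MS1* was at 0, and at most 8 in the SAM, where *DYT1* and *MS1* were at 0. The 6 stomatal lineage genes summed to 1867 to 2250 in Col-0 IM and 2130 to 2596 in *plt3 plt7* IM. In the IM the median sums in Col-0 and *plt3 plt7* were 191827 and 173853 for photosynthesis and 1085 and 693 for anther and tapetum. For the stomatal lineage they were 2072 and 2239. Overlapping sums do not show that the make-up of the samples was unchanged. The part of these cell types in the calls was not tested.

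Of the 22 genes with a positive difference, 16 were called in the IM only, all of them higher in the mutant. *FLC*, the MADS-box repressor of flowering (AT5G10140, chr5:3173382-3179448), had 33.6, 21.6, 25.4, 43.5 and 27 normalised counts in Col-0 IM and 96.4, 70.5, 69, 60 and 49.7 in *plt3 plt7* IM. In the SAM it had 314, 305, 372, 427 and 362 in Col-0 and 313, 294, 374, 421 and 336 in *plt3 plt7*. Every mutant IM library exceeded every Col-0 IM library, and the SAM groups were interleaved. *FLC* rose by 1.23 ± 0.18 in the IM (adjusted p = 8.76e-09), and the difference was 1.3 ± 0.23 (adjusted p = 5.09e-05, and 0.0832 with edgeR). *FLC* overlaps AT5G01675 on the opposite strand and lies 136 kb from *PLT3*.

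*KAT2* (AT4G18290, chr4:10114794-10118652), an inward potassium channel gene known from guard cells, had 187, 193, 220, 167 and 161 normalised counts in Col-0 IM and 371, 397, 392, 359 and 292 in *plt3 plt7* IM. Its SAM means were 493.7 ± 64 and 496.3 ± 140. It rose in the IM without overlap, and the difference was 0.98 ± 0.20 (adjusted p = 0.000987). *KAT2* was no longer called with edgeR or with SAM harvest groups 1 and 2 only, with an adjusted p of up to 0.264 over all settings. AT4G03610, a metallo-hydrolase family gene, went from 9.36 ± 1.63 to 38.9 ± 9.33 in the IM and had a difference of 1.88 ± 0.35 (adjusted p = 0.000282), though it shares 36.2% of its words with AT4G03620. AT4G00250 and *Cpn60beta3*, a plastid chaperonin gene, rose in the IM with differences of 1.26 ± 0.27 and 0.50 ± 0.11. AT2G40570 also rose there, with a difference of 0.78 ± 0.18.

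By annotation, genes of F-box or FBD-domain proteins were 6 of the 72 calls (8.33%) and 1.02% of genes tested, 5 of them positive. F-box proteins choose the targets of ubiquitin ligases. AT5G56370 rose in the IM with a difference of 0.82 ± 0.19, and AT4G22390 (0.99) and AT5G56810 (1.66), both chosen after their values were seen, also rose there. The other calls of this class were *UFO* and AT3G59270, both called in the SAM, and AT2G18780, the only negative one in the class. The class was read from the annotated product names, so an F-box gene annotated otherwise is not counted. Transcription factor genes were 7 of the calls (9.72%) and 6.09% of genes tested.

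**Figure D3:**
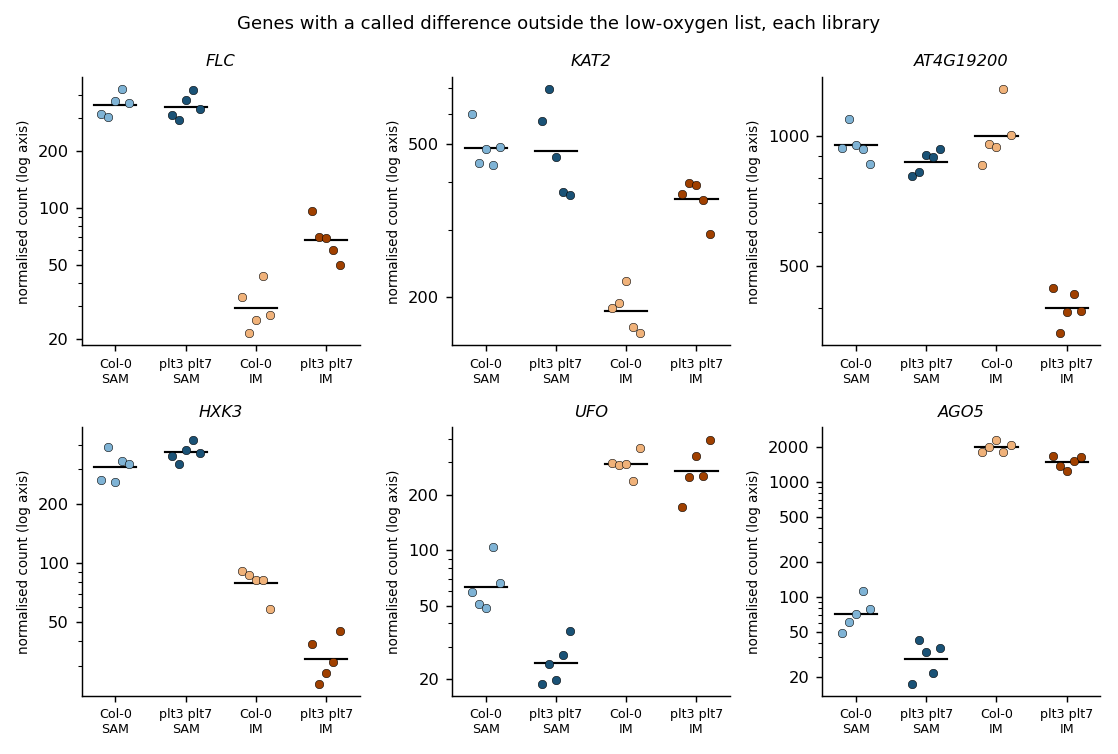
Normalised counts (log axis) in each of 20 libraries for 6 called genes outside the low-oxygen list, grouped by genotype and tissue, with horizontal lines at the geometric mean of 5 libraries. *FLC* and *KAT2* were higher, and AT4G19200 and *HXK3* lower, in every mutant IM library, whereas *UFO* was lower in every mutant SAM library and *AGO5* was lower in both tissues.

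In the SAM only, 8 of the genes with a called difference were called. *UFO* (AT1G30950, chr1:11035992-11037508), an F-box cofactor of LEAFY in floral meristem identity, had 58.9, 50.8, 48.6, 104 and 66.2 normalised counts in Col-0 SAM and 18.9, 24, 19.8, 27 and 36.4 in *plt3 plt7* SAM. In the IM it had 298, 289, 293, 237 and 356 in Col-0 and 172, 249, 323, 253 and 397 in *plt3 plt7*. The SAM groups did not overlap and the IM groups did. *UFO* fell by 1.35 ± 0.24 in the SAM (adjusted p = 3.59e-05), and the difference was 1.24 ± 0.29 (adjusted p = 0.0145). It was no longer called without replicate 4 of either SAM genotype, with edgeR or with SAM harvest groups 1 and 2 only, with an adjusted p of up to 0.317 over all settings.

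*AGO5* (AT2G27880, chr2:11871378-11876989), an Argonaute gene of the germ line, was the only gene with a called difference that was called as lower in both tissues. It had 48.6, 60.2, 71, 113 and 78.9 normalised counts in Col-0 SAM and 17.7, 42, 33.1, 21.8 and 36.4 in *plt3 plt7* SAM. In the IM it had 1829, 2000, 2332, 1807 and 2117 in Col-0 and 1692, 1370, 1246, 1523 and 1648 in *plt3 plt7*. Neither pair of groups overlapped. It fell by 1.41 ± 0.20 in the SAM and by 0.43 ± 0.12 in the IM, and the difference was 0.97 ± 0.23 (adjusted p = 0.0152), which was also lost without replicate 4 of either SAM genotype. The call was lost as well with edgeR, without harvest group in the fit, with separate fits for the tissues and with SAM harvest groups 1 and 2 only, with an adjusted p of up to 0.688.

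The other SAM-only calls with the smallest adjusted p were AT3G59270, AT4G08780, AT5G10770 and AT1G53900. AT4G08780, a peroxidase gene, rose by 1.52 ± 0.36 in the SAM at 5.53 to 42.3 normalised counts, and shares 27.6% of its words with AT4G08770. AT5G10770, an aspartyl protease gene 82.7 kb from *PLT3*, rose by 0.47 ± 0.13 in the SAM without overlap. AT1G53900 shares 96% of its words with AT1G53880, so the counts of the pair are uncertain. AT4G08780, AT5G10770 and AT1G53900 each passed in 15 of the 20 fits that left out 1 library, and AT3G59270 in all 20. None of these genes was called with edgeR or with SAM harvest groups 1 and 2 only. *PFN2*, a profilin gene chosen after its values were seen, had SAM counts of 6871 to 7516 in Col-0 and 8134 to 9440 in *plt3 plt7*, with a log2 fold change of 0.30 that stayed under the 25% minimum.

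In 10 of the 13 lists examined, among them those of genes that build and pattern the meristem, no member was called among 141 tested. This held with DESeq2, with edgeR and with SAM harvest groups 2 to 4 only, where 0.354%, 0.0541% and 1.49% of all genes were called. An unadjusted p under 0.05 was found for 12 of the 141 with DESeq2 (8.51%, against 8.3% of all genes) and for 11 with edgeR. Both shares are near the background, so nothing particular to these lists can be read from them. The lists do not hold every gene of a pathway, since the called genes *LOG5*, *IAA2* and *LHCB2.3* are not on them. The lists were meristem and organ boundary (21 tested, median difference -0.05, smallest adjusted p = 0.592), auxin (25 tested, 0.11, 0.257), cytokinin (26 tested, -0.04, 0.265), jasmonate, salicylate and wounding (26 tested, 0.12, 0.547), circadian clock (13 tested, 0.06, 0.198), photosynthesis (12 tested, -0.09, 0.55), heat shock (6 tested, -0.20, 0.719), stomatal lineage (6 tested, 0.17, 0.487), anther and tapetum (5 tested, -0.40, 0.415) and root (1 tested, 0.61, 0.622). Within them *STM*, the homeobox gene that keeps meristem cells undifferentiated, had a difference of -0.05 ± 0.15, *ANT* of 0.12 ± 0.08 and *PLT5* of 0.04 ± 0.11. *CLV3*, the stem cell peptide gene, had an estimate of -1.54 with an SE of 0.86, so a difference of this size could not be told from 0 at its depth. Of 30 tested flowering and floral genes, *FLC* and *UFO* were called (6.67%, against 0.354% of all genes), and the median difference was -0.01.

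**Figure D4:**
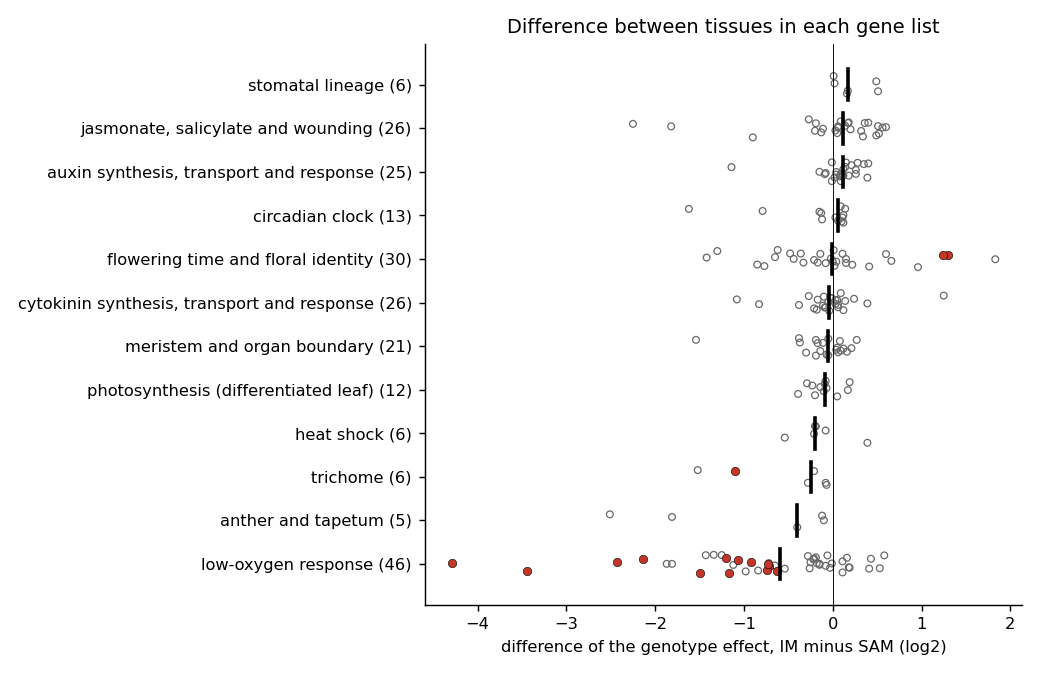
Difference of the genotype effect, IM minus SAM (log2), for each tested gene in 12 lists, with list size in brackets. Filled points are called genes and vertical bars are list medians. The low-oxygen list (46 genes, median -0.59) holds 13 called genes, all to the left of 0.

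Some genes already known to respond within a tissue showed no called difference. *SOC1*, a MADS-box promoter of flowering, fell by 0.43 ± 0.11 in the IM and had a log2 fold change of -0.11 ± 0.13 in the SAM, but the difference of -0.33 ± 0.17 was not called (adjusted p = 0.605). *AHP6*, a cytokinin signalling inhibitor gene, fell in the IM by 0.67 ± 0.20 and had -0.56 ± 0.28 in the SAM, a difference of -0.10 ± 0.35. *NPY4*, of the NPH3 family, fell in both tissues, with a difference of 0.35 ± 0.31, and *PUP18*, a purine permease gene, was called in neither in this fit, with a difference of -0.27 ± 0.42. *AHP4* rose in the SAM by 0.70 ± 0.18 and had at most 3.98 normalised counts in any IM library, so its IM change could not be read. Several large changes were called in both tissues in the same direction. AT5G24240, a phosphatidylinositol kinase-like gene that overlaps AT5G24230 on the opposite strand, fell by 3.31 ± 0.34 in the IM and by 5.34 ± 0.47 in the SAM (difference 2.03 ± 0.58, adjusted p = 0.122). AT1G75945 rose by 1.85 ± 0.19 and by 1.51 ± 0.21, AT5G34830 by 5.42 ± 0.58 and by 2.84 ± 0.49 from near 0, and AT1G33790, a jacalin lectin gene, fell by 1.70 ± 0.16 and by 0.99 ± 0.16. AT5G17090 rose in the IM by 1.77 ± 0.14 and was listed at 0 in each SAM library, so that no SAM change could be read.

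Values within harvest groups are given here for the called genes. They come from the same counts that chose the genes and are no support for the calls. In SAM groups 3 and 4 and IM group 3 each value compares 1 library with 1, so variation between libraries and between harvests cannot be told apart. For each gene, the mutant minus Col-0 value was taken within each of the 4 SAM and 3 IM harvest groups. In 69 of the 72 called genes (95.8%) all IM values lay on the called side of all SAM values, against 9.79% of all genes (IM below SAM in 5.35% and above in 4.44%). *FTM1* had SAM values of 1.63, 1.73, 2.19 and 0.99 and IM values of -2.21, -1.74 and -0.84. *FLC* had SAM values of 0.02, -0.17, -0.02 and -0.11 and IM values of 1.58, 0.93 and 0.85. *LBD41* was 1 of the 3 called genes whose values overlapped, with 1 SAM value of -0.09 and 1 IM value of -0.05. Genotype groups did not overlap in the IM for 40 of the 72 called genes, against 2.36% of all genes, and in the SAM for 13, against 1.77%.

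**Figure D5:**
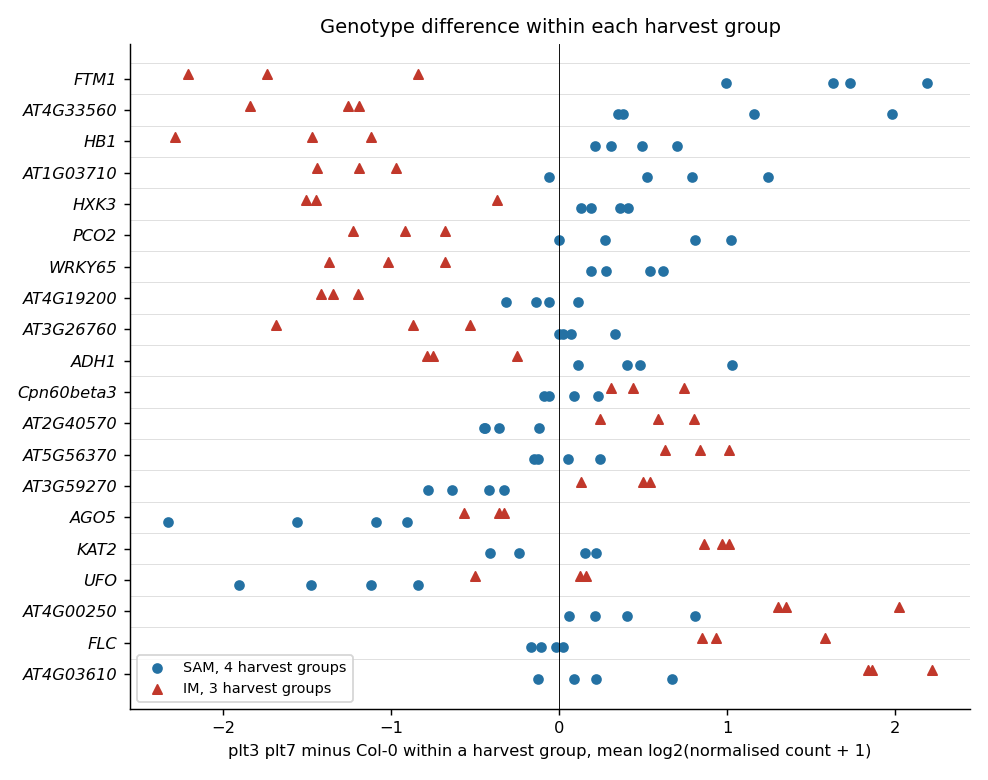
Difference of *plt3 plt7* minus Col-0 in mean log2(normalised count + 1) within each harvest group (x axis) for 20 called genes, 10 negative and 10 positive. Circles are the 4 SAM and triangles the 3 IM harvest groups, and the tissues are apart for each gene shown. SAM groups 3 and 4 and IM group 3 hold 1 library of each genotype.

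The called genes lay on all 5 chromosomes, with 19, 6, 19, 14 and 14 on chromosomes 1 to 5, which hold 26.2%, 15.1%, 19.8%, 15.1% and 23.2% of the genes tested. Within 1 Mb of *PLT3* lay 4 of 476 tested genes with a call, *FLC*, AT5G07870, AT5G10770 and *PMSR3*, and within 1 Mb of *PLT7* lay 1 of 462, AT5G65207. These windows hold 2.34% and 2.27% of the genes tested. Of the called genes, 15 (20.8%) overlap another gene on the opposite strand, against 27.4% of all genes, and 16 (22.2%) share more than 5% of their words of 31 bases with another gene, against 17.1%.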

How the data were processed

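The authors trimmed reads with fastp v.0.23.4 and pseudoaligned them with kallisto v.0.46.1 to TAIR10.1 cDNA. The kit was directional, but a kallisto strand option is not given in the sources used here. The deposited values were estimated counts per transcript, not normalised. The deposited TPM and effective lengths, also from the authors, served only for transcript lengths and fragment length. Estimated counts of 48266 transcripts were summed to 27562 loci and rounded. A gene entered the tests if 5 or more of the 20 libraries held 10 or more counts for it.

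Groups and harvest groups came from the sample labels. All libraries were fitted together with DESeq2 1.42.0 (Wald test, Benjamini-Hochberg adjustment, R 4.3.3), with tissue, genotype within tissue and harvest group nested in tissue, and fold changes were not shrunken. Adjusted p-values come from this fit unless edgeR 4.0.16 is named. Fragment length was read from transcripts of at least 2000 nt and compared with scipy 1.17.1. Python 3.11.15, numpy 2.4.6, pandas 2.3.3 and matplotlib 3.10.9 were also used, and the fit was tested on simulated data. Library totals (24.8 to 114.94 M) limit precision mainly near 10 counts, and reads carried no molecular identifiers.

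Named genes were *PLT3* and *PLT7*, the 10 positive and 10 negative calls with the smallest adjusted p, calls in both tissues, the 5 calls with the smallest adjusted p in each class (IM only, SAM only, opposite sign beyond 25% in both), calls in a gene list, and 13 genes with known effects. The members, lists and rule were chosen with earlier results of these data known. Alternatives were edgeR, TMM factors, other count filters and thresholds, no harvest group, a replicate block, a transcript length offset, separate fits and leaving out each library. Keeping only SAM harvest groups 1 and 2, keeping only SAM harvest groups 2 to 4, and the hypoxia-responsive motif were added after seeing the data.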

Additional observations from a re-analysis of the deposited data

Results flagged for a closer look

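The genotype effect differed between the tissues, by the interaction test in DESeq2, for 72 genes, as the report describes. The 2 genes that were called in both tissues in opposite directions were *FTM1* (log2 difference -3.44) and AT4G33560 (-2.43).

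Single libraries stood apart from the other 4 of their group by Dixon's test in 9 of 166 groups examined, and chance flags about 1 in 20. AT4G03610 had 120 normalised counts in *plt3 plt7* SAM replicate 1, against 101 to 105 in the others. AT4G00250 had 260 in *plt3 plt7* IM replicate 2, against 156 to 185. *Cpn60beta3* had 1916 in Col-0 IM replicate 5, against 1446 to 1506. *LBD41* had 779 and AT4G10270 had 152 in Col-0 SAM replicate 5, against 416 to 511 and 67.3 to 91. AT3G27220 had 1534 in Col-0 IM replicate 3, against 1086 to 1211. Fragments averaged 432.3 nt in Col-0 SAM replicate 4, against 412.7 to 413.8 nt, and 430.0 nt in Col-0 IM replicate 4, against 350.8 to 368.9 nt. The total was 114.94 M in *plt3 plt7* IM replicate 3, against 24.804 to 36.91 M.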

How the results depend on the processing

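None of the 72 called genes changed direction in any of the 35 settings tried that gave it a value. The genes were chosen by a large difference in the same counts, and the settings refit largely the same libraries. Keeping the direction is therefore no support for the calls, and the share over all genes was not counted. Against 72 genes with a called difference, edgeR called 11 and the fit with SAM harvest groups 1 and 2 only called 20, whereas the fit with SAM harvest groups 2 to 4 only called 302. Leaving out 1 library gave 39 to 240. Against 13 low-oxygen genes, edgeR and SAM harvest groups 1 and 2 only gave 4 each, and leaving out 1 library 7 to 14. Against 269 genes called in the IM, edgeR gave 128 and leaving out 1 library 165 to 544. Against 97 called in the SAM, edgeR gave 15, an adjusted p under 0.05 gave 57, no harvest group 151, SAM harvest groups 1 and 2 only 26, SAM harvest groups 2 to 4 only 326, and leaving out 1 library 33 to 270. The share of positive calls was 30.6%, 48.7% without Col-0 SAM replicate 3 and 60.0% with SAM harvest groups 1 and 2 only. The share of positive SAM calls was 54.6%, and 72.1% with SAM harvest groups 2 to 4 only. The causes were not tested. The replicate number as a block gave 143 calls, 59 shared with the 72 (141 with a transcript length offset as well), and 194 SAM calls. Of 10 pairs of same-numbered libraries, 6 had correlated deviations above 0.1 and 4 did not (-0.164 to 0.237 in the SAM, -0.093 to 0.623 in the IM), and 4 of 10 libraries correlated best with their own number. These deviations still hold the harvest-group effect, so a cut at 0.1 can neither show nor exclude pairing. In the SAM, replicate 2 was in harvest group 1 for Col-0 and in harvest group 2 for *plt3 plt7*. The numbers were not taken as pairs. Counting error limits genes near 10 counts, such as AT2G17850.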
